A study of Mus musculus with 11 samples.

Results

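A set of 9 genes of epithelial adhesion, simple keratins and epithelial splicing was followed in mouse tailbud tissue: Cdh1, Epcam, Krt8, Krt18, Krt19, Cldn4, Cldn6, Cldn7 and Esrp1. They were chosen by name, with earlier results of these data known, from the 56748 genes of the deposited count table. Of these, 9 of 9 were found once each and passed the filter on low counts, with 16572 genes in all. The tissue was microdissected from embryos at embryonic day 8.5, and its polyA RNA was sequenced in 11 libraries. There were 4 libraries of the genotype Wild-type, 3 of Fgfr1 FCPG/FCPG and 4 of Fgfr1 FCSPG/FCSPG. Both mutant lines carry point mutations at sites of FGFR1, a receptor for FGFs, where effectors bind, and the labels name no Cre, no other allele and no treatment. They do not say whether a library came from a single embryo or from pooled embryos, so a p-value speaks only of spread from library to library. The design text asks how transcription in developing mesoderm depends on canonical FGF signals. Each library goes by the number its deposited column carries, which is not the replicate number of the sample titles.

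Epithelial cells hold together through E-cadherin at adherens junctions and claudins at tight junctions, and their simple keratins pair into filaments that brace the cell. During gastrulation, cells that leave the epiblast through the primitive streak lose these proteins and become mesenchymal mesoderm, a step that depends on FGF signalling in the mouse and in which Snail and Zeb repressors silence epithelial genes. At this stage gut endoderm, surface ectoderm, notochord and the visceral endoderm, the outer extraembryonic layer, are epithelia, while the mesoderm named in the labels is largely mesenchymal or newly epithelial in the somites.

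RefSeq promoters of 300 bases (250 before the start site and 50 from it, build GRCm38.p6) were matched for 6 of the 9 genes, Cldn4, Cldn6, Cldn7, Epcam, Krt8 and Krt18, with 2 start sites for Cldn7 and 7 promoters in all. Promoters of 4 genes are printed, picked for a contrast in the levels of the genes and not in their sequences. Cldn6 and the keratin partners Krt8 and Krt18 had higher means in the mutants, and Cldn4 had its lowest mean in FCPG. Capitals mark CAGGTG or its reverse complement CACCTG, the E-box that Snail and Zeb repressors are known to bind.
Cldn6: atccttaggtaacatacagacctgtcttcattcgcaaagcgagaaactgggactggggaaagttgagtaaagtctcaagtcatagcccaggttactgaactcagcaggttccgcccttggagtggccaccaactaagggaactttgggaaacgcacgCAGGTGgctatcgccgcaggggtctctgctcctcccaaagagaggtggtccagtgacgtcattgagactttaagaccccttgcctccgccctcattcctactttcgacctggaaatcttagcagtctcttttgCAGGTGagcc
Cldn4: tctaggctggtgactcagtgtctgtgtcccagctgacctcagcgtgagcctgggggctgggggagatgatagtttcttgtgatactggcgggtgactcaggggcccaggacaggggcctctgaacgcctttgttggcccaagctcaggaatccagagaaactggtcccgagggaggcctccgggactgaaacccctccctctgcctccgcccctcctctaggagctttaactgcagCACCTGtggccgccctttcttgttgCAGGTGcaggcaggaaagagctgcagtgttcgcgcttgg
Krt8: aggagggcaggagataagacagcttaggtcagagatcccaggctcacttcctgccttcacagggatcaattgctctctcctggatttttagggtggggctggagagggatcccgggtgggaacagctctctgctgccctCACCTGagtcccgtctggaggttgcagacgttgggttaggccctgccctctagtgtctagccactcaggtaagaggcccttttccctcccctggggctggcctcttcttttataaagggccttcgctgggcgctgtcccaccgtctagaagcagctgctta
Krt18: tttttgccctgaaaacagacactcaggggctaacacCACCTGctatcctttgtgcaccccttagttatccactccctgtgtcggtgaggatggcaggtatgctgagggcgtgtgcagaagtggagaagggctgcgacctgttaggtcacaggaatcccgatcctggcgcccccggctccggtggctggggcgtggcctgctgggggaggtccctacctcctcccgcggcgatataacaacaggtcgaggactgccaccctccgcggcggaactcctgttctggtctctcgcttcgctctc
In GRCm38.p6 these lie at chr17:23679115-23679414 (plus strand), chr5:134946885-134947184 (minus strand), chr15:102004293-102004592 (minus strand) and chr15:102027966-102028265 (plus strand). The E-box was present in 6 of 7 matched promoters, at least once for 6 of 6 matched genes, and in 20.2% of all 32851 promoters in the same table. Cldn6 carried it at positions −93 and 41 from the start site, and Cldn4 at −14 and 12. Krt8 carried it at −111 and Krt18 at −214. The GC box GGGCGG of Sp and Klf factors was found for 4 genes, Cldn4, Cldn6, Cldn7 and Epcam, against 35.7% of all promoters. The Grainyhead-like site AACNGGTT was in 0 of the 7 and in 2.09% of all promoters. The Ets site CCGGAAG was found only in the 2 promoters of Cldn7 (8.86% of all), and the TATA box TATAAA (13.6% of all) and the GATA site AGATAA (11.2% of all) only in that of Krt8. Both strands were searched, and the TATAAA matches of Krt8 on the 2 strands overlap each other. These are matches of letters in short windows and say nothing of binding.

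Facts of the libraries bear on every value below. Total counts ran from 16014698 to 25453070 per library, and Fgfr1, which carries the mutations, stood in wild type at 192 ± 18.8, in FCPG at 201 ± 35.5 and in FCSPG at 190.5 ± 39.4 CPM (SD over 4, 3 and 4 libraries), a level that cannot test a point mutation. CPM divides a gene's count by the library's total, scaled between libraries by TMM. Markers of the labelled cells (14 genes of neuromesodermal progenitors, somitic and intermediate mesoderm) summed to 821 to 1231 CPM in wild type and 872 to 1242 CPM in FCSPG. In FCPG they summed to 1344 CPM in library 19, 697 CPM in library 46 and 129 CPM in library 45, where the somite gene Uncx had 0 counts, as it did in FCPG library 46 and FCSPG library 13. Markers of the visceral endoderm (20 genes) summed to 239 to 1392 CPM in wild type, 974 to 4252 CPM in FCSPG, and 1923, 18189.8 and 4828 CPM in FCPG libraries 19, 45 and 46, with Apoa4 at 0 in wild-type library 26 as the only zero. FCPG library 45 therefore stands apart. Library 46 does so less, its visceral endoderm sum of 4828 CPM being near the 4252 CPM of the highest FCSPG library. Results are also given without both. Transcripts of the Y chromosome were counted in FCPG libraries 19 and 45 and FCSPG library 32 and were at 0 in the other 8 libraries, so male tissue gave 2 of 3 FCPG, 1 of 4 FCSPG and 0 of 4 wild-type libraries. In such bulk tissue, more cells of a type and more RNA per cell cannot be told apart.

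In wild-type tailbud, the keratins dominated the set. Between genes, levels are compared as the deposited FPKM, which divides by gene length. Krt8, the type II simple keratin, averaged 193 ± 59.6 FPKM (SD, n = 4) and Krt18, its type I partner, 162 ± 50.3 FPKM (SD, n = 4), and their ranges overlapped. Next came Cldn6, an embryonic tight-junction claudin, at 45.8 ± 12.5 FPKM (SD, n = 4), with every wild-type library under the lowest Krt18 value. Below it each neighbour in the order overlapped with the next: Epcam at 29.5 ± 3.77, Krt19 at 22.3 ± 6.01, Cdh1 at 16.6 ± 4.52, Cldn4 at 15.02 ± 1.81, Cldn7 at 13.0 ± 3.88 and Esrp1 at 6.04 ± 1.38 FPKM (SD, n = 4 each). In FCPG Cldn4 had the lowest mean, at 7.74 ± 9.35 FPKM (SD, n = 3). The mean of Cldn7, at 32.4 ± 23.3 FPKM (SD, n = 3), stood above that of Krt19, at 13.8 ± 5.58 FPKM (SD, n = 3). Libraries overlapped in both places. In FCPG library 19 Cldn4, at 18.5 FPKM, was above Cldn7, Krt19 and Esrp1, and in library 46 Cldn7, at 20.13 FPKM, was just under Krt19, at 20.20 FPKM. In FCSPG the order of the first 4 was that of wild type, and the last 3 were Krt19, Cldn4 and Esrp1, each overlapping with the next.

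**Figure D1:**
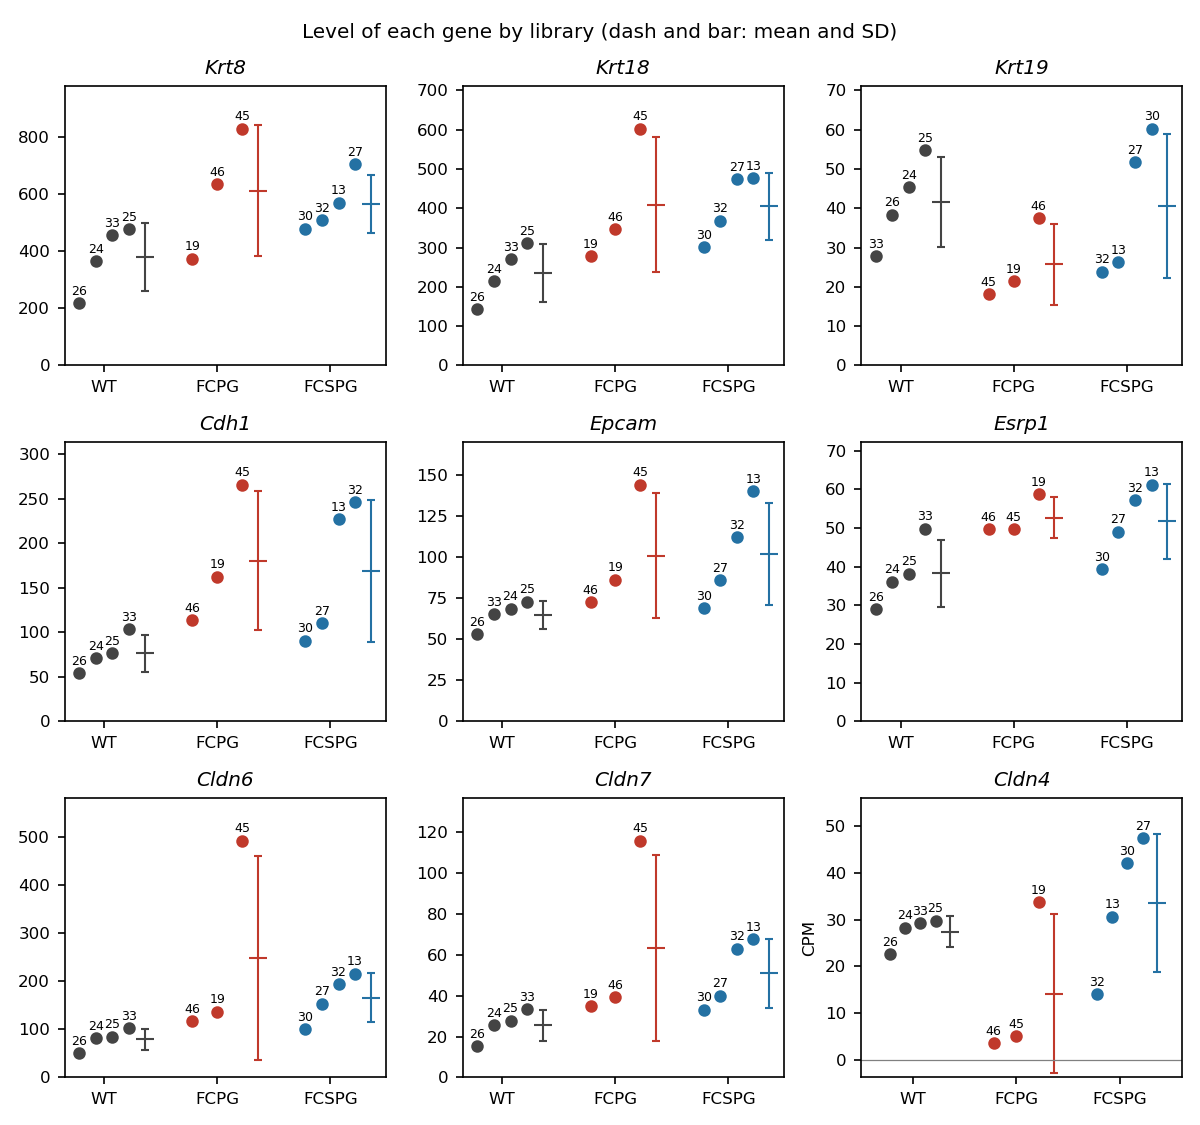
Level of each of the 9 genes in CPM (vertical axes) in each library, by group; points are libraries, labelled by number, and the dash with bar is the mean with SD. FCPG library 45 holds the highest FCPG value of 6 genes, and Krt19 and Cldn4 do not follow the other 7.

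Set against wild type, FCPG shows how the first mutant differs. E-cadherin, EpCAM, Krt8, Krt18, Cldn6, Cldn7 and Esrp1 all had higher means in FCPG, from 1.38-fold for Esrp1 to 3.13-fold for Cldn6, whereas Krt19 and Cldn4 had lower means: 7 of 9 higher and 2 of 9 lower, where 50.2% and 49.8% of all genes were. None passed edgeR's quasi-likelihood test adjusted over all genes, a count of 0 of 9, where 0% of the 16572 genes passed. At an unadjusted p under 0.05, 7 of 9 were higher, where 13.0% of all genes were, and 0 of 9 lower, where 8.88% were. The members were chosen with earlier results of these data known, so their contrast with all genes is only a description. The median log2 fold change of the 9 was 0.69, and that of all genes 0.00. DESeq2, which makes more calls on these libraries, called Cdh1, Cldn6 and Cldn7 higher, 3 of 9 where 6.21% of all genes were called higher, and 0 of 9 lower, where 2.70% were. limma-voom called 0. The authors' deposited table has the same 3 members at an adjusted p under 0.05, with 767 of the 56748 genes (1.35%) higher at that threshold and 0.763% lower. These shares are of all genes in the count table, of which 16572 passed the filter. They cannot be set beside the 6.21% above, and they are low partly through that larger base. With embryo sex as a term in edgeR, 0 of 9 had an unadjusted p under 0.05, where 5.42% of all genes were higher and 2.94% lower at that p. The log2 fold changes were then 0.79 for Krt8 and 0.75 for Krt18, close to those without the term, but 0.61 for Cdh1, 0.33 for Epcam, 0.97 for Cldn6, 0.81 for Cldn7 and 0.35 for Esrp1. No wild-type library was male, so the term rests on the mutant libraries. Male FCPG library 45 also held the highest visceral endoderm sum, so sex and tissue makeup cannot be told apart in this fit.

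Markers of the visceral endoderm differed in the same direction. Of the list, 20 of 20 genes were higher in FCPG and 19 of 20 in FCSPG, where 50.2% and 49.9% of all genes were. The median log2 fold changes of these visceral endoderm genes were 3.58 and 2.29. Dab2, an endocytic adaptor of that layer, stood at 910 ± 984 CPM in FCPG, 283 ± 174 CPM in FCSPG and 80.8 ± 43.6 CPM in wild type (SD over 3, 4 and 4 libraries). Lrp2, its uptake receptor megalin, stood at 273 ± 243, 106 ± 50.7 and 55.4 ± 11.2 CPM in the same order. The part of the visceral endoderm in the members' differences was not tested. The number of members with an unadjusted p under 0.05 and a higher mean in FCPG was 2 without library 45, where 5.91% of all genes were. It was 4 without wild-type library 24, where 9.39% of all genes were, and 4 without wild-type library 26, where 10.5% were. Without library 45 the log2 fold change was 0.28 for Epcam, 0.40 for Krt8 and 0.41 for Krt18. Without FCPG library 19, edgeR called 5 of 9 after adjustment, Krt8, Krt18, Cldn6 and Cldn7 higher and Cldn4 lower, where 9.91% of all genes were called higher and 6.14% lower. Without libraries 45 and 46, with library 19 as the only FCPG library and its spread assumed to be that of the other groups, 1 of 9, Cdh1, had an unadjusted p under 0.05, with a log2 fold change of 1.09, while Krt8 was at −0.02. In that fit 2.17% of all genes were higher at that p.

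E-cadherin, encoded by Cdh1 (ENSMUSG00000000303, chromosome 8, 107329983 to 107396878, plus strand, build mm39), is the calcium-dependent adhesion molecule of epithelial adherens junctions. It stood at 71.0, 76.5, 54.5 and 104 CPM in wild-type libraries 24, 25, 26 and 33. The FCPG values in libraries 19, 45 and 46 were 163, 266 and 113 CPM, each above every wild-type library. The FCSPG libraries 13, 27, 30 and 32 held 227, 111, 90.8 and 247 CPM, so library 30 overlapped with wild type and libraries 13 and 32 were high. The log2 fold change was 1.24 ± 0.38 (SE) in FCPG (edgeR adjusted p = 0.118) and 1.14 ± 0.36 (SE) in FCSPG (edgeR adjusted p = 0.446). In the authors' deposited table Cdh1 had an adjusted p of 0.00899 in FCPG and 0.0197 in FCSPG. Groups of FCPG and wild type did not overlap, with the mutant higher, in 3 of 9 members, Cdh1, Cldn6 and Cldn7, and in 7.57% of all genes. With the mutant lower this held for 0 of 9 and for 6.98% of all genes.

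Against N-cadherin, the cadherin of mesenchymal and neural cells, the Cdh1 to Cdh2 ratio in FPKM was 0.705, 0.786, 0.383 and 1.03 in wild-type libraries 24, 25, 26 and 33. It was 1.97, 5.42 and 1.28 in FCPG libraries 19, 45 and 46, and 4.11, 1.48, 0.913 and 4.17 in FCSPG libraries 13, 27, 30 and 32. E-cadherin thus exceeded N-cadherin in 3 of 3 FCPG libraries, in 3 of 4 FCSPG libraries and in wild-type library 33. Cdh2 itself averaged 23.96 ± 4.71 FPKM over 4 wild-type, 15.98 ± 4.62 over 3 FCPG and 15.7 ± 4.36 over 4 FCSPG libraries (SD).

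EpCAM, from Epcam (ENSMUSG00000045394, chromosome 17, 87943407 to 87958557, plus strand), is an epithelial adhesion protein that binds and stabilises claudins. It stood at 68.8, 73.1, 53.3 and 65.2 CPM in wild-type libraries 24, 25, 26 and 33. The FCPG values in libraries 19, 45 and 46 were 86.4, 144 and 72.7 CPM, and library 46 lay within the wild-type range. EpCAM transcripts in FCSPG libraries 13, 27, 30 and 32 stood at 140.3, 86.1, 69.1 and 112 CPM, with library 30 within that range. The log2 fold changes were 0.64 ± 0.26 (SE) in FCPG and 0.65 ± 0.25 (SE) in FCSPG (edgeR adjusted p = 0.194 and 0.446).

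The claudins, which seal tight junctions, went apart. Cldn6 (ENSMUSG00000023906, chromosome 17, 23898223 to 23901420, plus strand) stood at 81.2, 84.3, 50.01 and 102 CPM in wild-type libraries 24, 25, 26 and 33. The FCPG values in libraries 19, 45 and 46 were 136, 491 and 116 CPM, all above wild type, and library 45 was far above the others. FCSPG libraries 13, 27, 30 and 32 had 215, 153, 101 and 194 CPM, of which library 30 alone reached down into the wild-type range. The log2 fold change was 1.65 ± 0.46 (SE) in FCPG (edgeR adjusted p = 0.112) and 1.06 ± 0.43 (SE) in FCSPG (edgeR adjusted p = 0.446). Without FCPG library 45 the FCPG value was 0.66. The authors' deposited table gives Cldn6 an adjusted p of 0.0192 in FCPG and 0.0067 in FCSPG.

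Cldn7 (ENSMUSG00000018569, chromosome 11, 69855605 to 69858711, plus strand), the claudin best known as a partner of EpCAM, had a similar order of libraries to Cldn6. It stood at 25.5, 27.8, 15.2 and 33.3 CPM in wild-type libraries 24, 25, 26 and 33. FCPG libraries 19, 45 and 46 held 34.8, 116 and 39.3 CPM, and the gap between FCPG library 19 and wild-type library 33 was small. In FCSPG libraries 13, 27, 30 and 32 it stood at 67.6, 40.0, 33.2 and 63.0 CPM, and library 30 alone overlapped with wild type. The log2 fold changes were 1.31 ± 0.42 (SE) and 1.00 ± 0.40 (SE) (edgeR adjusted p = 0.126 and 0.446), and 0.54 in FCPG without library 45. In the authors' deposited table the adjusted p was 0.0499 in FCPG and 0.0227 in FCSPG.

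Cldn4 (ENSMUSG00000047501, chromosome 5, 134973973 to 134975788, minus strand), another sealing claudin, stood within a narrow range in wild type, at 28.3, 29.8, 22.5 and 29.2 CPM in libraries 24, 25, 26 and 33. In FCPG, library 19 held 33.8 CPM, while libraries 45 and 46 held 5.02 and 3.52 CPM. Its FCSPG levels in libraries 13, 27, 30 and 32 were 30.6, 47.5, 42.1 and 14.1 CPM, so that library 32 lay under every wild-type library and the other 3 above. FCPG thus split into 1 library above wild type and 2 below, and the log2 fold change of −0.96 ± 0.66 (SE) (edgeR adjusted p = 0.420) lies between them. Without library 19 it was −2.69 (edgeR adjusted p = 0.00869), and with library 19 as the only FCPG library it was 0.30. The FCSPG value was 0.29 ± 0.60 (SE) (edgeR adjusted p = 0.858).

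The makeup of the 3 claudins, a description chosen after the values were seen, is given for each library. Cldn4 made up 20.5%, 20.6%, 25.2% and 17.4% of their summed FPKM in wild-type libraries 24, 25, 26 and 33. It made up 16.1%, 0.795% and 2.17% in FCPG libraries 19, 45 and 46, and 9.55%, 19.3%, 23.5% and 5.07% in FCSPG libraries 13, 27, 30 and 32. The Cldn6 to Cldn4 ratio ran from 2.34 to 3.67 in wild type and reached 103 in FCPG library 45, 34.8 in FCPG library 46 and 14.5 in FCSPG library 32. Cldn9, which lies beside Cldn6, and Cldn3, a relative of Cldn4, were named after their values were seen. In FCPG Cldn9 stood at 3.13 ± 2.32 CPM and in wild type at 8.18 ± 2.29 CPM (SD over 3 and 4 libraries), and Cldn3 at 2.15 ± 0.953 and 3.82 ± 0.877 CPM. In FCSPG they stood at 7.44 ± 2.47 and 4.20 ± 1.45 CPM (SD over 4 libraries). Both had a lower mean in FCPG than in wild type, as Cldn4 did, and Cldn6 a higher one.

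**Figure D2:**
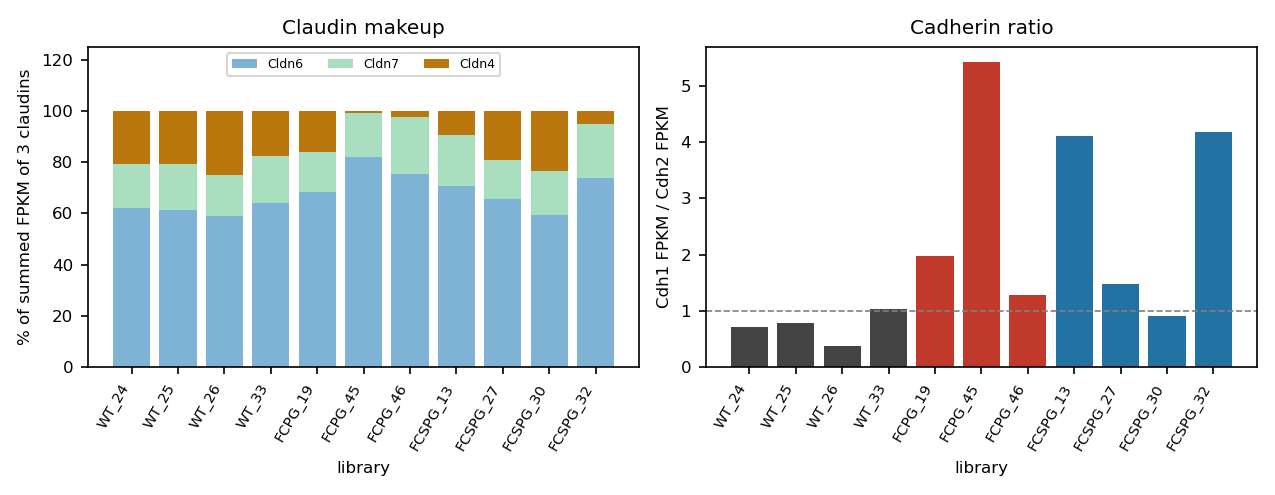
Left, share of each claudin in the summed FPKM of Cldn4, Cldn6 and Cldn7 (percent) in each library; right, ratio of Cdh1 to Cdh2 FPKM, with a dashed line at 1. Cldn4 is at 0.795% in FCPG library 45, and the cadherin ratio reaches 5.42 there.

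Krt8 (ENSMUSG00000049382, chromosome 15, 101905133 to 101912917, minus strand) and Krt18 (ENSMUSG00000023043, chromosome 15, 101936615 to 101940462, plus strand) encode the partners of the first keratin filaments of the embryo. Krt8 stood at 366, 479, 219 and 455 CPM in wild-type libraries 24, 25, 26 and 33. The FCPG values in libraries 19, 45 and 46 were 375, 829.8 and 634 CPM, and library 19 lay within the wild-type range. In FCSPG libraries 13, 27, 30 and 32 it stood at 571, 706, 479 and 509 CPM, all above the highest wild-type library, though library 30 by under 1 CPM. Krt8 was the only member whose FCSPG and wild-type values did not overlap, 1 of 9 with the mutant higher, where 4.00% of all genes showed this, and 3.35% showed it with the mutant lower, 0 of 9 members among them. Its log2 fold changes were 0.69 ± 0.29 (SE) and 0.58 ± 0.27 (SE) (edgeR adjusted p = 0.198 and 0.462).

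Krt18 stood at 214, 312, 143 and 270.3 CPM in wild-type libraries 24, 25, 26 and 33. The FCPG values in libraries 19, 45 and 46 were 278, 603 and 347 CPM, and those in FCSPG libraries 13, 27, 30 and 32 were 477, 473, 301 and 368 CPM. FCPG library 19 and FCSPG library 30 lay under the highest wild-type library, and the other mutant libraries above it. The log2 fold changes were 0.80 ± 0.30 (SE) and 0.79 ± 0.28 (SE) (edgeR adjusted p = 0.162 and 0.446). The Krt8 to Krt18 ratio in FPKM ran from 1.12 to 1.26 in wild type, 0.989 to 1.34 in FCPG and 0.878 to 1.17 in FCSPG. FCPG libraries 19 and 45 and FCSPG libraries 13, 27 and 32 lay under every wild-type library in this ratio. FCPG library 46 lay above the wild-type range and FCSPG library 30 within it. The pseudogene Krt8-ps could take reads of Krt8, but it had at most 23 counts in a library.

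Krt19 (ENSMUSG00000020911, chromosome 11, 100031636 to 100039491, minus strand), a smaller type I keratin that also pairs with Krt8, did not follow Krt18. It stood at 45.4, 54.9, 38.3 and 27.8 CPM in wild-type libraries 24, 25, 26 and 33. FCPG libraries 19, 45 and 46 held 21.5, 18.1 and 37.5 CPM. Of the FCPG libraries, 19 and 45 lay under every wild-type library and 46 among them. In FCSPG libraries 13, 27, 30 and 32 it stood at 26.2, 51.8, 60.3 and 23.8 CPM, with 2 libraries low and 2 high. The log2 fold change was −0.69 ± 0.37 (SE) in FCPG (edgeR adjusted p = 0.304) and −0.04 ± 0.34 (SE) in FCSPG (edgeR adjusted p = 0.970). The Krt18 to Krt19 ratio in FPKM ran from 4.81 to 12.5 in wild type, 11.9 to 42.9 in FCPG and 6.45 to 23.5 in FCSPG. The 3 libraries with Y-linked transcripts, FCPG 19 and 45 and FCSPG 32, held the lowest Krt19 values of all, and with embryo sex as a term the FCPG value was −0.14. These libraries are all mutant and differ in tissue makeup, so sex cannot be told apart from either.

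Esrp1 (ENSMUSG00000040728, chromosome 4, 11331933 to 11386783, minus strand), the splicing factor that sets epithelial isoforms, among them those of FGF receptors, varied least in FCPG. It stood at 36.1, 38.2, 29.0 and 49.8 CPM in wild-type libraries 24, 25, 26 and 33. FCPG libraries 19, 45 and 46 held 58.7, 49.7 and 49.6 CPM. For FCSPG libraries 13, 27, 30 and 32 it was 61.2, 49.1, 39.3 and 57.3 CPM. Wild-type library 33 overlapped with both mutant groups. The log2 fold changes were 0.46 ± 0.19 (SE) and 0.43 ± 0.18 (SE) (edgeR adjusted p = 0.198 and 0.446).

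For the second mutant, FCSPG, the mean was higher than in wild type in 8 of 9 members and lower in 1, Krt19, where 49.9% and 50.1% of all genes were. Cdh1, Epcam, Krt18, Cldn6, Cldn7 and Esrp1 had higher means with an unadjusted p under 0.05, 6 of 9 where 6.24% of all genes did, and 0 of 9 had a lower mean at that p, where 4.76% did. Here too the choice of members with earlier results known makes the contrast only a description. After adjustment edgeR called 0 of 9 and 0% of all genes, and DESeq2 on all groups also called 0 of 9, where it called 0.133% of all genes higher and 0.115% lower. The authors' deposited table holds Cdh1, Cldn6, Cldn7 and Krt18 at an adjusted p under 0.05, 4 of 9, with 331 of 56748 genes (0.583%) higher and 0.266% lower in FCSPG at that threshold. These shares are again of all genes in the count table, not of the 16572 that passed the filter. The median log2 fold change of the members was 0.65, that of all genes 0.00. The count of 6 was 3 without wild-type library 24, 2 without wild-type library 26, 2 without FCSPG library 13, 2 without FCSPG library 32 and 3 with embryo sex as a term. In the same order 3.15%, 2.85%, 2.24%, 4.16% and 3.96% of all genes were higher at that p, so the share of all genes was also lower in each of these fits. The median log2 fold change of the members, 0.65 with all libraries, was 0.66, 0.56, 0.56, 0.61 and 0.61 in them. Without wild-type library 24 Cldn6 was at 1.06, Cldn7 at 0.99 and Esrp1 at 0.39. This comparison and the previous one share the wild-type libraries. Wild-type library 26 held the lowest wild-type value of 8 of 9 members, and also the lowest visceral endoderm sum of all libraries, 239 CPM. FCSPG library 30 held the lowest FCSPG value of 7 of 9 members and the lowest visceral endoderm sum of its group, 974 CPM.

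**Figure D3:**
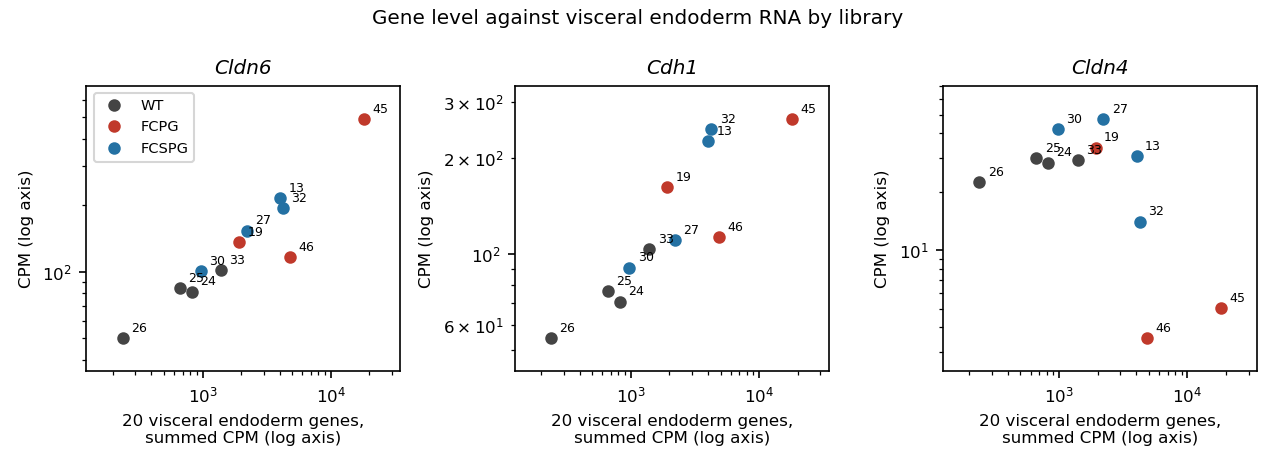
Cldn6, Cdh1 and Cldn4 in CPM (vertical, log axes) against the summed CPM of 20 visceral endoderm genes (horizontal, log axes); points are libraries, coloured by group and labelled by number. Cldn6 and Cdh1 are lowest in wild-type library 26 (239 CPM of marker RNA) and highest in FCPG library 45, and Cldn4 is lowest in FCPG libraries 45 and 46.

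FCSPG was also compared with FCPG directly. edgeR called 0 of 9 after adjustment (0% of all genes) and had 0 of 9 at an unadjusted p under 0.05 in either direction, where 4.77% of all genes were higher and 6.67% lower. DESeq2 called 0 of 9, where 0.00603% of all genes were called higher and 0% lower, and limma-voom also called 0. The means were higher in FCSPG for 3 members and lower for 6, where 49.2% and 50.8% of all genes were, and no member's groups were apart, where 2.34% of all genes were apart with FCSPG higher and 2.33% with it lower. The intervals say how large a difference could still be there. That of Esrp1, a log2 difference of −0.03, was the narrowest, from −0.45 to 0.40 (95%), and that of Epcam ran from −0.57 to 0.59. For Krt8 it ran from −0.75 to 0.52, for Krt18 from −0.67 to 0.64 and for Cdh1 from −0.93 to 0.74. For Krt19 it ran from −0.17 to 1.48. The claudins had the widest intervals of the 9, Cldn7 from −1.24 to 0.61, Cldn6 from −1.58 to 0.42 and Cldn4 from −0.22 to 2.71. Without FCPG library 19, Cldn4 was higher in FCSPG by 2.99 on the log2 scale (edgeR adjusted p = 0.0192), in a fit that called 3.22% of all genes higher and 3.02% lower.

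**Figure D4:**
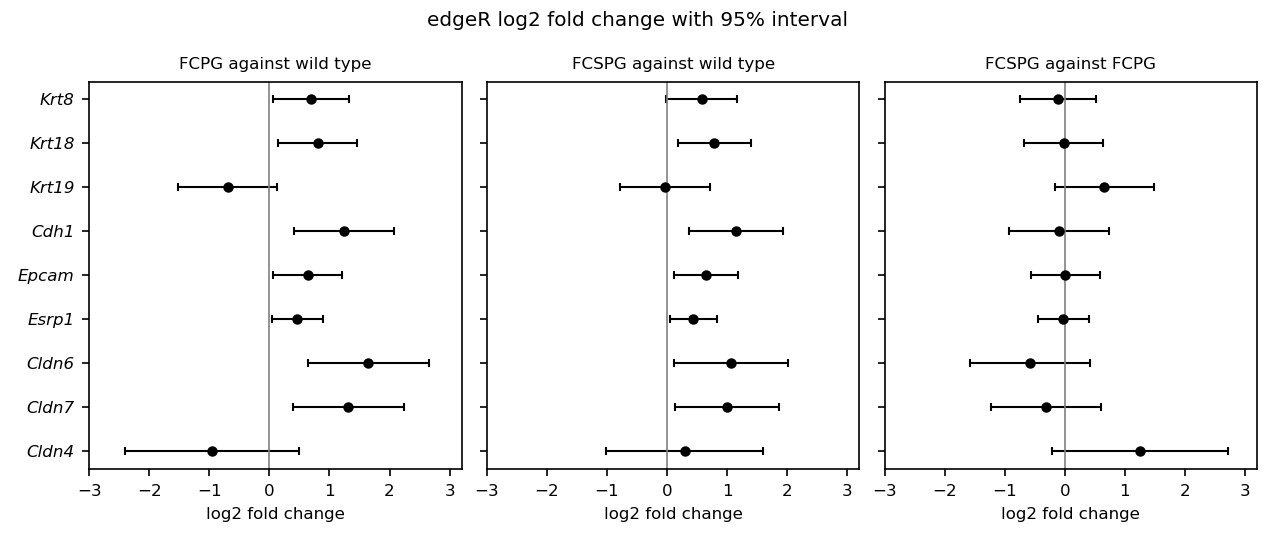
edgeR log2 fold change (horizontal axes) of the 9 genes in the 3 comparisons; points are estimates and bars 95% intervals before adjustment for multiple genes. Against wild type 7 genes lie to the right of 0 for FCPG and 8 for FCSPG, and all intervals between the mutants include 0.

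Other genes of epithelial junctions were read from lists written for this work, also with earlier results of these data known. Each list count below stands against shares of all genes. At an unadjusted edgeR p under 0.05, 13.0% were higher and 8.88% lower in FCPG, and 6.24% and 4.76% in FCSPG. After adjustment DESeq2 called 6.21% higher and 2.70% lower in FCPG, and 0.133% and 0.115% in FCSPG. A list count near its share is no result about that list. Of 20 tight-junction genes, 7 had a higher and 2 a lower mean in FCPG at an unadjusted edgeR p under 0.05. After adjustment edgeR called 0 and DESeq2 6 higher in FCPG, and each called 0 in FCSPG. The median log2 fold change was 0.07. Cgn, the junction scaffold cingulin, stood at 67.9 ± 30.9 CPM in FCPG, 45.3 ± 6.26 CPM in FCSPG and 29.1 ± 8.57 CPM in wild type (SD over 3, 4 and 4 libraries). Patj, of the Crumbs polarity complex, stood at 82.4 ± 33.5 against 34.1 ± 9.33 CPM, and Crb3, the Crumbs protein of epithelia, at 18.5 ± 14.7 against 6.22 ± 2.04 CPM (SD, n = 3 and 4). In FCSPG 2 of the 20 were higher and 0 lower at that p. Of 13 adherens-junction genes, 3 were higher in FCPG and 0 lower, among them Nectin2, a cell adhesion receptor, at 174 ± 43.4 against 110.1 ± 11.9 CPM (SD, n = 3 and 4), and Jup, plakoglobin, at 85.2 ± 42.2 against 47.5 ± 5.26 CPM. Of 10 desmosome genes, 4 were higher in FCPG and 0 lower, among them Dsg2, a desmosomal cadherin, at 111 ± 43.3 against 40.6 ± 21.8 CPM (SD, n = 3 and 4). In FCSPG 1 adherens-junction gene was higher and 1 lower, and 0 desmosome genes were at that p in either direction. After adjustment edgeR called 0 genes of either list, and DESeq2 called 3 adherens-junction and 2 desmosome genes higher in FCPG and 0 in FCSPG.

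Proteases and partners of EpCAM were more uniform. Of 12 genes, 7 were higher in FCPG and 6 in FCSPG at an unadjusted p under 0.05. At that p 13.0% and 6.24% of all genes were higher. Of the 12, 0 were lower at that p in either, and the median log2 fold changes were 0.65 and 0.71. After adjustment edgeR called 0 in either mutant, and DESeq2 3 higher in FCPG and 0 in FCSPG. St14, the membrane protease matriptase that cleaves EpCAM, stood at 33.7 ± 11.6 CPM in FCPG, 32.5 ± 4.86 CPM in FCSPG and 20.7 ± 4.24 CPM in wild type (SD over 3, 4 and 4 libraries). Its activator Prss8, prostasin, stood at 57.9 ± 45.7 and 40.2 ± 11.1 CPM against 19.6 ± 6.04 CPM (SD, n = 3, 4 and 4). Ap1m2, the epithelial sorting adaptor, stood at 54.1 ± 33.4 and 35.3 ± 13.7 CPM against 16.7 ± 3.17 CPM (SD, n = 3, 4 and 4). Each of these 3 genes, named for a small p in FCPG, was above every wild-type library in all libraries of both mutants. Of the 12 genes, 5 were so in FCPG, where 7.57% of all genes were, and 3 in FCSPG, where 4.00% were. Tmprss2, another membrane serine protease, stood at 199 ± 189 CPM in FCPG, 75.7 ± 35.0 CPM in FCSPG and 32.2 ± 13.2 CPM in wild type (SD over 3, 4 and 4 libraries).

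Regulators of epithelial identity were mixed. Of 14 genes, 7 were higher and 1 lower in FCPG at an unadjusted p under 0.05, where 13.0% and 8.88% of all genes were. In FCSPG 5 were higher and 0 lower, where 6.24% and 4.76% were. After adjustment edgeR called 0, and DESeq2 called 3 higher and 1 lower in FCPG and 0 in FCSPG. Rbm47, an RNA-binding protein of endoderm, stood at 46.8 ± 43.7 CPM in FCPG and 5.78 ± 3.89 CPM in wild type (SD over 3 and 4 libraries), and Grhl1, a Grainyhead-like factor, at 3.24 ± 1.36 against 1.44 ± 0.249 CPM (SD, n = 3 and 4). Elf3, an epithelial Ets factor, stood at 13.7 ± 6.82 against 6.13 ± 1.54 CPM (SD, n = 3 and 4). Of the 14, 4 had a lower mean in FCPG. The 1 with an unadjusted edgeR p under 0.05 was Trp63, the p63 factor of surface ectoderm. It stood at 1.20 ± 0.950 CPM in FCPG, 5.81 ± 6.40 CPM in FCSPG and 13.8 ± 6.04 CPM in wild type (SD over 3, 4 and 4 libraries). Keratins other than the members were scarce, 7 of 10 being tested, and 2 were lower in FCPG at that p, Krt14 at 0.339 ± 0.295 against 2.69 ± 1.45 CPM and Krt15 at 0.196 ± 0.289 against 0.794 ± 0.396 CPM (SD, n = 3 and 4). In FCSPG 0 of 7 were at that p. After adjustment edgeR and DESeq2 each called 0 of the 7.

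Marker lists of the epithelia that could hold the members went different ways. Of 15 hindgut and definitive endoderm genes, 8 were higher and 0 lower in FCPG at an unadjusted p under 0.05. At that p 13.0% of all genes were higher and 8.88% lower in FCPG. The 15 genes summed to 293 to 585 CPM in wild type, 744 to 1137 CPM in FCPG and 410.2 to 1025 CPM in FCSPG. Of 11 tested surface ectoderm genes, 0 were higher and 4 lower in FCPG, Tfap2b, Trp63, Krt14 and Krt15. Among these, Trp63, Krt14 and Krt15 were already counted above with the regulators and other keratins, so they are no separate observation. The surface ectoderm list summed to 173 to 231 CPM in wild type, 82.6 to 220 CPM in FCPG and 185 to 343 CPM in FCSPG. Tfap2b, Krt5, Krt15 and Gabrp were at 0 in FCPG library 45, Krt14 in FCPG library 19 and Gabrp in 4 further libraries. In FCSPG 1 of the 11 was higher at that p and 0 lower, where 6.24% and 4.76% of all genes were. Of 10 tested genes of extraembryonic ectoderm and trophoblast, 4 were higher and 0 lower in FCPG, among them Rhox5, at 131 ± 120 CPM in FCPG and 18.8 ± 11.8 CPM in wild type (SD over 3 and 4 libraries), and their sums ran from 120 to 306 CPM in wild type, 236 to 792 CPM in FCPG and 181 to 562 CPM in FCSPG. The part of these tissues in the members' levels was not tested.

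Of 16 mesenchymal genes, 13 had a lower and 3 a higher mean in FCPG, and 16 a lower mean in FCSPG. Of all genes 49.8% had a lower mean in FCPG and 50.1% in FCSPG. Of the 16, 4 were lower and 0 higher in FCPG at an unadjusted p under 0.05, and 5 lower and 0 higher in FCSPG. At that p 8.88% of all genes were lower in FCPG and 4.76% in FCSPG. The median log2 fold changes of the 16 were −0.26 and −0.44. After adjustment edgeR called 0, and DESeq2 called 2 lower in FCPG and 1 lower in FCSPG. The summed level of the list went otherwise in FCPG: it was 2358 to 2703 CPM in wild type and 1678 to 2075 CPM in FCSPG, but 1691 CPM in FCPG library 19, 2733 CPM in library 45 and 3086 CPM in library 46, the last 2 above every wild-type library. Cdh2 stood at 129 ± 37.3 CPM in FCPG, 127 ± 35.3 CPM in FCSPG and 194 ± 38.0 CPM in wild type (SD over 3, 4 and 4 libraries). Zeb1, a repressor of Cdh1, stood at 23.9 ± 2.88, 27.2 ± 13.5 and 51.3 ± 18.1 CPM in the same order (SD, n = 3, 4 and 4). Col3a1, a fibrillar collagen, stood at 3.85 ± 2.03, 22.8 ± 28.0 and 79.0 ± 50.2 CPM, and Prrx1, a mesenchymal homeobox factor, at 17.0 ± 13.5, 33.8 ± 10.9 and 58.3 ± 27.4 CPM in the same order (SD, n = 3, 4 and 4). FCPG values of these 4 genes, named for a small p in FCPG, did not overlap with wild type. With FCPG lower this held for 4 of the 16 genes and for 6.98% of all genes.

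Likeness across libraries was measured by Pearson's r over the 11 libraries, which differ in group and tissue makeup, as a description. Each member was set against the mean standardised log2 CPM of the other 8. Krt18 was nearest to the rest (r = 0.950), followed by Cldn7 (0.891), Cldn6 (0.873), Epcam (0.865), Cdh1 (0.816), Krt8 (0.814) and Esrp1 (0.728). Cldn4 and Krt19 went against it (r = −0.322 and −0.551). After subtracting each group's mean, the values were 0.911 for Krt18, 0.849 for Cldn6, 0.496 for Esrp1, −0.276 for Cldn4 and −0.585 for Krt19.

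Genes outside the set with the pattern most like the mean of the 9 were Aprt, an enzyme of purine salvage (r = 0.976, Spearman's rho = 0.900), and Mpv17l2, a mitochondrial membrane protein (r = 0.975, rho = 0.991). Spint2, the Kunitz inhibitor of matriptase (r = 0.971, rho = 0.927), and Fxyd2, a regulator of the sodium pump (r = 0.970, rho = 0.973), came next. The others of the first 10 among genes with a mean of 5 CPM or more were Misp3, Avpi1, Dolpp1, Sra1, Tmem176b and Pex10, the last with r = 0.957. Without wild-type library 26 and FCPG library 45, the libraries farthest from the median, r was 0.954 for Aprt, 0.959 for Mpv17l2 and 0.939 for Spint2. Spint2 stood at 135 ± 45.1 CPM in FCPG, 132 ± 42.8 CPM in FCSPG and 73.3 ± 20.8 CPM in wild type (SD over 3, 4 and 4 libraries). For the mean of Krt19 and Cldn4, chosen after their values were seen, the nearest genes were Ctbp1, a transcriptional corepressor (r = 0.972), Gm1673 (r = 0.970) and Arl3, a small GTPase of cilia (r = 0.969).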

How the data were processed

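The deposited values are counts per gene. The submitters' processing notes name HISAT2, featureCounts, DESeq2 and the build mm39. Versions and options are not given in the sources used here. The kit was a stranded one per the labels' protocols, and whether counting used strand is not stated. Of the 9 genes only Krt8 overlaps another annotated gene, Gm36026 on the other strand, which had at most 15 counts. FPKM values, deposited by the authors, were used only to compare levels between genes. The authors also deposited log2 fold changes and p-values, and their log2 values are printed with the mutant as numerator. Every gene in those tables has a p under 0.05 before adjustment.

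The columns name a genotype and a number absent from the titles, so columns were assigned to groups only, and 0 columns were left over. edgeR 4.0.16's quasi-likelihood test (R 4.3.3) was fitted to the counts of all 11 libraries with TMM scaling, 1 term for group and filterByExpr, two-sided, with Benjamini-Hochberg adjustment over 16572 genes and a threshold of 0.05. Its run on simulated counts, drawn without tissue differences between libraries, does not vouch for the calls on these libraries. CPM used the TMM factors, and log2 CPM a prior count of 2. The SE of a fold change is the log2 fold change divided by the root of F, and intervals use the t quantile of the fit. Library totals are given with the results. The common coefficient of variation in the edgeR fit was 0.325. DESeq2 1.42.0, limma-voom (limma 3.58.1), other filters and scaling, embryo sex and left-out libraries were alternatives; the fits without FCPG libraries 45 and 46 and DESeq2 without a filter on the groups compared were added after the data were seen.

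The members and lists were chosen with earlier results of these data known. The rule for named genes takes the 9 members, up to 4 genes of each list with the smallest p in FCPG against wild type, the 10 genes most like the members at a mean level of at least 5 CPM, and Fgfr1; not all are printed.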

Additional observations from a re-analysis of the deposited data

How the results depend on the processing

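Values were recomputed under each alternative. No paired analysis was possible because the columns and the titles number the libraries differently. For FCPG against wild type the number of members past the threshold was 0 with edgeR, 3 with DESeq2's Wald test, 1 (Cldn6) without a filter on low counts, 3 with DESeq2 without a filter on the groups compared, and 0 to 5 with 1 library left out, the 5 without FCPG library 19. For FCSPG against wild type it was 0 with edgeR, 4 with DESeq2 without a filter on the groups compared, and 0 to 0 with 1 library left out. For FCSPG against FCPG it was 0 with edgeR and 0 to 1 with 1 library left out. DESeq2 size factors, limma-voom, keeping genes with 1 CPM in 3 libraries or more, fitting just the groups compared, and embryo sex as a term left each count at 0.

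Against wild type, log2 fold changes of Krt8 and Cldn4 in FCPG changed sign without FCPG libraries 45 and 46, to −0.016 and 0.30. That of Krt19 in FCSPG, near 0, was 0.14 with embryo sex as a term and −0.29 to 0.14 with 1 library left out. Between the mutants, where edgeR with all libraries called no member, signs changed for Krt18 with limma-voom (0.041) and without a filter (0.011). With embryo sex as a term, Cdh1 was 0.27, Krt18 0.018, Cldn7 0.011 and Esrp1 0.041. Without FCPG libraries 45 and 46, Cdh1 was 0.044, Krt8 0.58, Krt18 0.53, Cldn4 −0.019, Cldn6 0.27 and Cldn7 0.54. With 1 library left out, Cdh1 ran from −0.35 to 0.29, Epcam from −0.19 to 0.35, Krt8 from −0.36 to 0.16, Krt18 from −0.21 to 0.37, Cldn6 from −0.92 to 0.39, Cldn7 from −0.58 to 0.46 and Esrp1 from −0.12 to 0.084. The cause of these changes was not tested.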
